A study of Rattus norvegicus with 12 samples.

Results

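Laser-ablated calvarial bone was compared with bur-drilled calvarial bone 24 h after surgery, on the 4 laser arrays and the 4 bur arrays of a series of 12. The arrays were chosen by their titles alone, and no measured value entered the choice. Calvaria are the flat bones of the skull vault. All samples came from rats aged 10 weeks, whose strain and sex were not given in the sources used here. For the bur samples a turning bur, moved in a few strokes at roughly 0.75 mm/s, cut an area of 8 by 3 mm. For the laser samples the same area was ablated by 3 passes of an Er:YAG laser moved at roughly 2 mm/s, at 20 Hz, 127 mJ output per pulse, 20.2 J/cm2 at the tip and a pulse of 200 µs. The 4 control samples had the periosteum, the fibrous sheath of bone, stripped away and the bone left whole, and they entered the fit and are quoted beside the members. From each sample 200 ng of total RNA was labelled with Cy3 and hybridised to 1 single-colour Agilent array. No label ties the samples to separate animals, and the p-values therefore measure only the spread between samples, which may be technical.

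A fresh bone wound draws in leukocytes through chemokines, small secreted proteins that bind receptors on neutrophils and monocytes. Resident and recruited macrophages then release cytokines such as interleukin 1 and tumour necrosis factor, switch to glycolysis for energy, and clear debris through scavenger receptors before bone-forming cells refill the gap. A bur removes bone mechanically with frictional heat, whereas the Er:YAG laser removes it by heating the water in the tissue until it vaporises explosively.

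The arrays of both groups lay on different slides. Slide 2 held the laser arrays and slide 1 the bur and control arrays, so slide and treatment cannot be told apart in any difference between laser and bur. The scan date split the arrays in the same way. By the barcodes, the bur arrays lay in column 2 and the laser and control arrays in column 1. Column therefore also goes with treatment, both between laser and bur and between bur and control. Before normalization the median processed signal ran from 55.6 to 81.9 on the laser arrays and from 18.7 to 28.3 on the bur arrays. The spike-in probes, which bind RNA added in fixed amounts and carry no rat sequence, averaged 10.28 ± 0.87 log2 (SD, n = 4) on the laser arrays and 8.66 ± 0.62 on the bur arrays. The group means differed, but laser 3 at 9.08 lay below bur 1 at 9.40. All levels below are log2 processed signals after quantile normalization, which gives every array the same distribution, and all differences are laser minus bur on that scale with their standard error from limma. Levels of different genes come from different probes and are not compared with each other.

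Of 16382 genes tested, 4224 were called at an adjusted p under 0.05, which is 25.8%. Among these, 1898 read higher in laser-ablated bone (11.6% of the genes tested) and 2326 read lower (14.2%). A further size limit of 2-fold kept 1856 genes (11.3%), of which 1185 read higher and 671 lower. The 4 laser values and the 4 bur values did not overlap for 5500 genes (33.6%). The median difference over all genes was -0.06. Calls moved with signal level: among the dimmest 25% of the genes 18.9% were called higher and 5.05% lower, whereas among the brightest 25% these shares were 7.54% higher and 25% lower. Of the genes called higher, 583 were not well above background on any bur array, while 0 of the genes called lower were below background on all laser arrays. The share of rat spots well above background was 67.5 to 72% on the laser arrays and 57.0 to 59.9% on the bur arrays. A probe passed the filter when well above background on at least 4 arrays, which the laser arrays alone can supply. The part of this in both counts was not tested. When the arrays were scaled on the spike-in probes in place of the quantiles, 112 genes were called, 98 of them higher. With that scaling the median difference over all genes was -0.20, and the cause of the smaller count was not tested. The other calls given here were made on quantile normalized signal, which is relative to the other genes of an array.

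Genes read by several probes gave a check on these calls. Of the genes tested, 4748 had several kept probes, and for 302 of them (6.36%) every probe was called in the same direction. In 237 genes (4.99%) every probe read lower in laser-ablated bone, and in 65 (1.37%) every probe read higher. In 110 genes 1 probe was called higher and another lower. Some probes of a gene overlap on the transcript: 44 of the 65 and 220 of the 237 genes had at least 2 probes that share no run of 30 bases. Without laser 1 the counts were 39 higher and 139 lower, and without laser 3, 132 lower. Of 828 genes with several probes whose brightest probe was called lower, 28.6% had all probes lower, and of 408 called higher, 15.9% had all probes higher. Over the 4748 pairs formed by the brightest and the second probe of a gene, the laser-bur differences of both probes correlated at 0.335 (Pearson). These pairs share the 8 arrays and their RNA, and they are not independent points. Where both probes of a pair were called, 68 of 428 pairs (15.9%) went in opposite directions. Between bur and control bone, which shared slide 1, the same pairs correlated at 0.721, and 3 of 539 pairs called by both probes (0.557%) were opposed. Among the 1315 pairs whose second probe also averaged above 7 log2, the correlation was 0.489 for laser and bur and 0.873 for bur and control. Over the 4524 pairs that share no run of 30 bases the correlations were 0.301 and 0.711, and over the 224 that do they were 0.816 and 0.93. Across the slides, separate probes of 1 gene therefore read the difference less alike than within the slide, also where both were bright. The part of the slide in this was not tested.

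**Figure D1:**
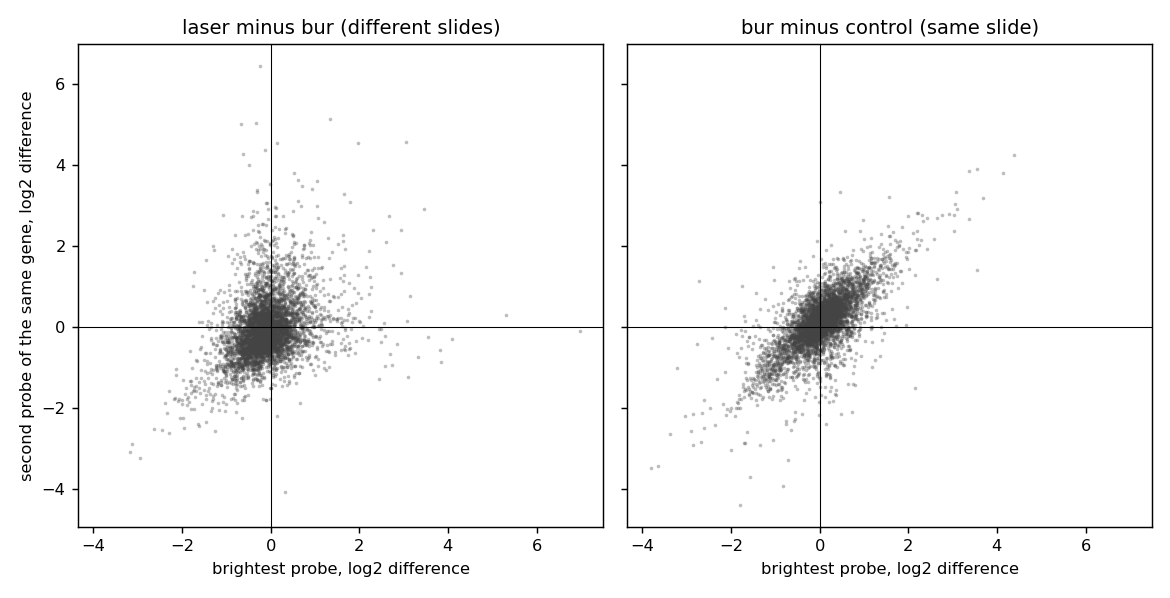
Each point is 1 of 4748 genes with several probes. The horizontal axis gives the log2 difference read by its brightest probe and the vertical axis that read by its second probe, for laser minus bur (left, different slides, r = 0.335) and bur minus control (right, same slide, r = 0.721). The left cloud has arms along both axes, where only 1 probe of the gene moved.

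Msr1 and Cebpb were among the 14 lowest genes, by their weakest probe, of those with all probes called lower in laser-ablated bone. For both the start of each probe is printed, to show that the reading came from separate stretches of the transcript. The probes of Msr1, the class A scavenger receptor of macrophages, lie on rat chromosome 16 at 56293586-56293645 and 56309938-56309997 in build rn4. Those of Cebpb, a transcription factor of myeloid cells and of the acute phase response, lie on chromosome 3 at 158827280-158827339 and 158827761-158827820. Each probe has 60 bases, the first 30 are shown in the order of these positions, and whether they fall in coding or untranslated exon was not determined here.
Msr1 probe at transcript base 648: gaacgtgtgcacaaagtatcagcagaaatc
Msr1 probe at transcript base 4292: cctggaagtgctctcaagacttccattatc
Cebpb probe at transcript base 863: cagctgtcgcgagagctcagcacgctgcgg
Cebpb probe at transcript base 1344: gaggcgtatgtatattttgagaaccttttc
The longest run of bases shared by the probes of a gene was 7 for Msr1 and 5 for Cebpb.

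Cebpb read 9.56, 9.73, 9.22 and 9.72 on the laser arrays and 12.08, 11.82, 11.31 and 11.70 on the bur arrays by its brighter probe, the one at base 1344. All bur values lay above all laser values. The difference was -2.17 ± 0.20 (SE), a 4.5-fold lower reading (limma adjusted p = 2.52e-05), and the other probe gave -1.77. Control bone averaged 10.22 ± 0.27 (SD, n = 4), between both cut groups. Msr1 read 8.55, 8.32, 7.52 and 8.73 on the laser arrays and 10.78, 10.34, 9.68 and 10.28 on the bur arrays. The groups did not overlap, and both lay above the control mean of 6.90. The difference was -1.99 ± 0.45 by the brighter probe (3.97-fold lower, adjusted p = 0.00812) and -1.80 by the other.

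Several other genes with all probes lower are known from myeloid cells. Clec4d, a C-type lectin receptor of macrophages and neutrophils for fungal and mycobacterial glycolipids, read 5.91, 5.62, 4.03 and 5.07 on the laser arrays against 9.20, 8.87, 7.03 and 7.28 on the bur arrays. Its difference was -2.94 ± 0.63 (7.67-fold lower, adjusted p = 0.00639), -3.21 by its other probe, and control bone at 5.05 was at the laser level. Nos2, the inducible nitric oxide synthase, read 5.51, 5.13, 4.66 and 5.16 in laser-ablated bone and 8.40, 8.07, 5.76 and 7.39 in bur-drilled bone. That is 4.89-fold lower (adjusted p = 0.0181, and no longer called without laser 3 or without bur 2), with probes at -2.29 and -2.60. The bur arrays of Nos2 were spread, and bur 3 lay near the laser values.

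Havcr2, the checkpoint receptor TIM-3, read 6.48, 6.45, 4.30 and 6.46 on the laser arrays and 9.07, 8.94, 7.27 and 8.21 on the bur arrays (5.47-fold lower, adjusted p = 0.0367). Its call was lost when any 1 laser array, or bur 1, 2 or 4, was left out, while both probes gave near values of -2.45 and -2.55. Cd300c2, an immunoglobulin-like receptor of myeloid cells, was 4.09-fold lower with probes at -2.03 and -2.24, and Lilrb4, an inhibitory receptor of myeloid cells, 3.57-fold lower with probes at -1.83 and -1.85. Both lost their call without laser 3, bur 1 or bur 2, Lilrb4 also without laser 1. G0s2, an inhibitor of fat breakdown, was 4.27-fold lower (adjusted p = 0.00169), and Hacd4, an enzyme of fatty acid elongation, 3.71-fold lower (adjusted p = 0.000582). Emilin2, a glycoprotein of the elastic fibre surface, was lower by all 3 of its probes, from -2.01 to -1.79 (adjusted p = 0.000218).

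Genes outside the myeloid lineage belonged to this set too. Erbb3, a receptor of neuregulins, read 5.59, 5.99, 4.84 and 6.50 in laser-ablated bone and 8.31, 8.42, 7.83 and 8.91 in bur-drilled bone. It was 6.23-fold lower (adjusted p = 0.000453) with probes at -2.64 and -2.52, and the groups lay well apart. Dmkn, a secreted protein known from epidermis, was 8.74-fold lower (adjusted p = 0.0109) with probes at -3.13 and -2.88. Akr1b8, an aldo-keto reductase, was 3.87-fold lower (adjusted p = 0.03), a call that was lost without laser 1, 2 or 3 or bur 1, 2 or 4.

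Over the 237 genes with all probes lower, the median difference was -0.87 by the brightest probe. Over the same genes the median bur-control difference was 0.70 and the median laser-control difference -0.20. Over all genes, 23.4% were called between bur and control and 34.4% between laser and control. These 3 comparisons share arrays pairwise and are set side by side only.

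CC chemokines call monocytes and lymphocytes to a wound. Of 15 list members tested, 8 were called lower in laser-ablated bone and 1 higher, against 14.2% and 11.6% of all genes, and the list's median difference was -1.52 against -0.06 over all genes. List means by array did not overlap between laser and bur, running from 8.08 to 8.46 log2 on the laser arrays, from 9.27 to 9.91 on the bur arrays and from 6.81 to 7.86 on the control arrays. Ccl2, the main attractant of monocytes through the receptor Ccr2, read 10.61, 10.32, 10.33 and 10.97 on the laser arrays and 13.33, 13.03, 13.22 and 13.60 on the bur arrays. The closest values of both groups were more than 2 log2 units apart. Ccl2 was 6.67-fold lower (-2.74 ± 0.42, adjusted p = 0.000974), with control bone at 8.98 ± 1.07. In bulk tissue a lower reading cannot be told apart into fewer cells that make the transcript and less transcript per cell.

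Ccl7, another ligand of Ccr2, read 9.33, 8.61, 8.88 and 9.46 in laser-ablated bone and 12.14, 11.57, 11.97 and 12.17 in bur-drilled bone. It was 7.42-fold lower (-2.89 ± 0.45, adjusted p = 0.000996). Ccl3, a ligand of Ccr1, read 10.46, 9.92, 9.22 and 10.35 in laser-ablated bone and 13.19, 12.89, 12.22 and 12.46 in bur-drilled bone. The difference was -2.70 ± 0.41 (adjusted p = 0.000882). Laser-ablated bone also stood above control bone in these genes, with laser-control differences of 1.57 for Ccl2, 2.28 for Ccl7 and 1.16 for Ccl3, each called (adjusted p = 0.0151, 0.00295 and 0.0493). Each of them was read by 1 probe.

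Ccl6, a myeloid chemokine of rodents, was read by 2 probes, which gave -1.89 and -1.77, and the brighter one read 9.04, 9.17, 8.87 and 9.19 on the laser arrays and 11.46, 11.52, 10.52 and 10.31 on the bur arrays (adjusted p = 0.000846). Its laser values were close together, while bur 1 and 2 stood about 1 log2 unit above bur 3 and 4. Ccl22, a ligand of Ccr4 made by dendritic cells and macrophages, was the list's only member called higher (2.31-fold, adjusted p = 0.0118). It read 9.98, 9.82, 10.44 and 9.30 on the laser arrays and 8.18, 9.22, 8.41 and 8.89 on the bur arrays, and its 3 probes gave from 0.26 to 1.27 without all being called, although 2 of them, the lowest and the highest reading, start at the same transcript base.

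CXC chemokines with the Glu-Leu-Arg motif call neutrophils. Of 11 members of the CXC and granulocyte growth factor list tested, 4 were called lower and 0 higher, with a median difference of -0.78. Cxcl2, a ligand of Cxcr2, read 9.59, 8.51, 8.10 and 8.74 on the laser arrays and 13.38, 12.04, 10.75 and 12.47 on the bur arrays. The groups did not overlap, but the bur values covered a wide range. Cxcl2 was 10.7-fold lower (-3.42 ± 1.03, adjusted p = 0.0314), a call lost without laser 2, 3 or 4 or bur 1, 2 or 4. Cxcl1, of the same receptor, read 6.97, 6.15, 5.71 and 7.34 against 10.12, 9.23, 8.49 and 10.25 and was 7.88-fold lower (-2.98 ± 0.72, adjusted p = 0.0119). Csf3r, the receptor of granulocyte colony-stimulating factor, was 2.31-fold lower (adjusted p = 0.0282), and Csf1, the growth factor of macrophages, 1.77-fold lower (adjusted p = 0.0413). Csf3r lost its call without laser 1, 2 or 3 or bur 1 or 2, and Csf1 without any laser or bur array other than laser 3. Between 1 and 5 members of this list were called lower when any 1 array was left out, with 1 called without laser 2 and 1 without bur 2.

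Cxcl1 and Cxcl2 are neighbours on chromosome 14, and their promoters are printed because both genes stood among those lowest in laser-ablated bone. The 250 bases before each start are from RefSeq, build GRCr8, minus strand, at chr14:17479322-17479571 for Cxcl1 and chr14:17467256-17467505 for Cxcl2. Capitals mark matches on either strand to GGGA, any 4 bases and CC, a form of the NF-kappaB motif.
Cxcl1: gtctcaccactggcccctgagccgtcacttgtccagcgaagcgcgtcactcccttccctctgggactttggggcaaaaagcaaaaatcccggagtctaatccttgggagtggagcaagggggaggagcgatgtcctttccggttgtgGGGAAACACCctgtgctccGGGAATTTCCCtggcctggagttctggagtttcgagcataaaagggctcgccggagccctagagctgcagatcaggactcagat
Cxcl2: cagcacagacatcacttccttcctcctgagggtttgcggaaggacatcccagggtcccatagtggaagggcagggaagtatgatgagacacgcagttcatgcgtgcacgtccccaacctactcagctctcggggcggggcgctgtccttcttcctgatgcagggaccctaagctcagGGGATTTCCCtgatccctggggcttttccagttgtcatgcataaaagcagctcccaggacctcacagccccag
There were 3 matches in the Cxcl1 window, 2 of which overlap, and 1 in that of Cxcl2. The motif occurred in 16.8% of 27457 promoter windows of this length and in 21.3% of the 11924 that belong to genes tested. Of the 22 cytokine and chemokine list members called lower, 15 had a promoter in the table and 5 of these held it. The C/EBP form TTNCNNAA was found in 10 of these 15, against 29.1% of the windows of genes tested, and the AP-1 form TGANTCA in 2, against 4.77%. Of the 237 genes with all probes lower, 180 had a promoter in the table, of which 21.1% held the NF-kappaB form and 24.4% the C/EBP form, against 21.3% and 29.1% over genes tested. Such matches describe letters and show no binding.

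Cytokines and their feedback genes gave the same direction. Of 21 members of the inflammatory list tested, 10 were called lower and 1 higher, with a median difference of -1.05. List means ran from 6.43 to 6.81 log2 on the laser arrays, from 7.40 to 8.12 on the bur arrays and from 5.76 to 6.23 on the control arrays. Il1b, named after its values were seen, encodes interleukin 1 beta and read 10.52, 10.25, 8.71 and 9.84 on the laser arrays against 12.95, 12.43, 10.82 and 11.25 on the bur arrays. It was 4.09-fold lower (adjusted p = 0.0202), and the call was lost without laser 3, bur 1 or bur 2. Il1rn, its receptor antagonist, read 10.73, 10.77, 9.43 and 10.47 against 13.79, 13.44, 11.86 and 12.62, so agonist and antagonist were both lower. The Il1rn difference was -2.58 ± 0.42 (5.98-fold, adjusted p = 0.00137), and laser and control bone differed by -0.02.

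Tnf, the gene of tumour necrosis factor, read 8.48, 7.96, 7.55 and 8.78 on the laser arrays and 10.60, 10.02, 9.22 and 9.93 on the bur arrays (3.36-fold lower, adjusted p = 0.00244). Il10, an anti-inflammatory cytokine, was well above background on 2 laser and 3 bur arrays. With dimmer arrays raised to the background limit its difference was -2.78. Socs3, the feedback inhibitor of interleukin 6 and granulocyte colony-stimulating factor signalling, was lower by both probes, at -1.47 and -1.09 (adjusted p = 0.000602 for the brighter). Its values of 9.27, 9.45, 9.13 and 8.88 on the laser arrays all lay below the 11.01, 10.58, 10.14 and 10.89 of the bur arrays.

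The member called higher was Lif, leukaemia inhibitory factor, a cytokine of the interleukin 6 family, by both of its probes, which start 2 bases apart and are nearly the same sequence. Its brighter probe read 4.17, 3.54, 3.75 and 4.31 on the laser arrays and was not well above background on any bur array, so the reading is at least 2.17-fold higher. The fitted differences were 1.52 and 2.05, and the call was lost without laser 1, 3 or 4, bur 2 or bur 4.

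**Figure D2:**
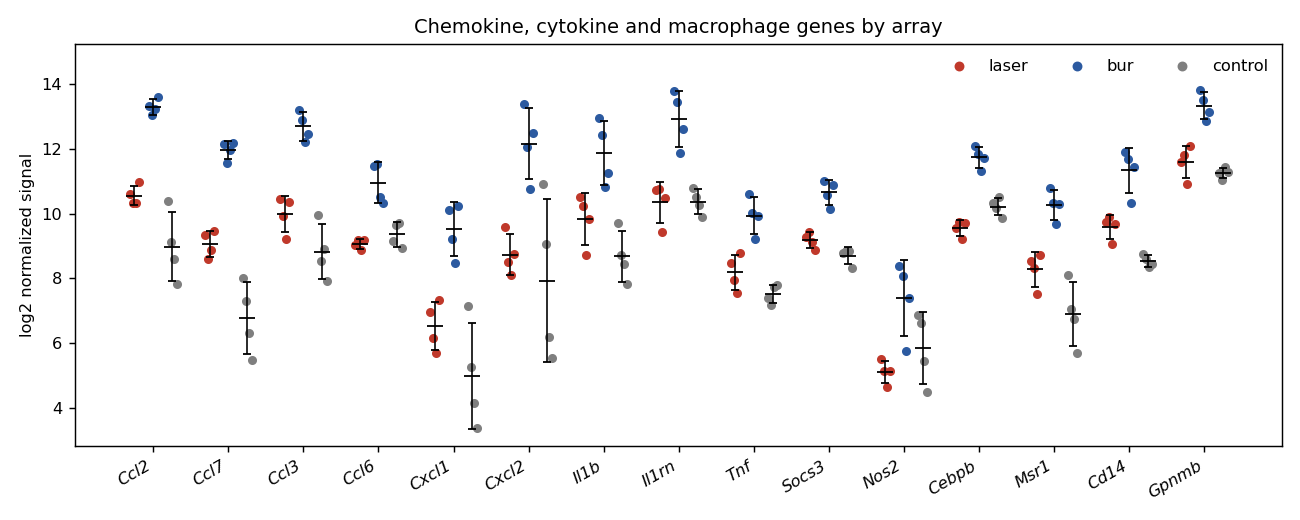
Log2 normalized signal of 15 chemokine, cytokine and macrophage genes on each array, with the group mean and SD (n = 4) as black bars. In each gene all 4 bur values (blue) lie above all 4 laser values (red), and the control mean (grey) lies below the laser mean in 11 of them.

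Of 18 monocyte and macrophage markers tested, 9 were called lower and 0 higher, with a median difference of -1.43, and this held for 8 to 10 markers when any 1 array was left out. List means were 9.08 to 9.86 log2 on the laser arrays, 10.37 to 11.07 on the bur arrays and 8.80 to 9.28 on the control arrays. Itgam, the CD11b integrin chain of monocytes and neutrophils, was lower by both probes, at -1.62 and -1.51 (adjusted p = 0.00333). Cd14, the lipopolysaccharide co-receptor, was 3.33-fold lower (adjusted p = 0.00219) and Gpnmb, a glycoprotein of lipid-laden macrophages, 3.32-fold lower (adjusted p = 0.000774), each by 1 probe.

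C3ar1 and Tlr6 had 3 probes each, all called lower, and were named after these values were seen. The agreement of their probes is therefore no separate support. Of 1107 genes with 3 or more kept probes, 38 had all probes lower and 5 all higher. C3ar1, the receptor of complement fragment C3a, read 8.14, 8.62, 7.66 and 8.99 in laser-ablated bone and 9.89, 10.25, 10.06 and 11.10 in bur-drilled bone, with probes from -2.23 to -1.40. Tlr6, a receptor of bacterial lipopeptides, read 8.82, 8.80, 8.29 and 8.73 against 10.57, 10.50, 10.14 and 10.17, with probes from -1.69 to -1.12. Both sets of values stood clear of each other. An exception among the markers was Lyz2, the macrophage lysozyme. Its brightest probe read 1.84-fold lower (adjusted p = 0.01), whereas a second probe gave 1.94 higher and the third -0.69.

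Of 11 neutrophil markers tested, 3 were called higher and 0 lower, against 11.6% and 14.2% of all genes, with a median difference of 0.63. S100a9, a calprotectin subunit of neutrophils and monocytes, read 15.75, 16.05, 15.81 and 16.16 on the laser arrays and 14.41, 14.73, 14.82 and 14.17 on the bur arrays (2.66-fold higher, adjusted p = 0.000118). It was read by 1 probe, and the bur-control difference was -0.51. S100a8, its partner, was 2.24-fold higher by its brighter probe, and the other, placed on the opposite strand by the files, gave -0.46. Camp, the cathelicidin of neutrophil granules, was 2.89-fold higher by its brighter probe, and the other, likewise on the opposite strand, gave -0.14. The calls of S100a8 and Camp were lost when the probes of a gene were averaged. Mmp8, neutrophil collagenase, did not pass (0.98, adjusted p = 0.139). List means of the neutrophil markers overlapped, at 10.60 to 11.84 log2 on the laser arrays and 10.05 to 10.97 on the bur arrays.

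Of the T and NK cell markers 8.33% were called and of the B cell markers 10%, both below the 25.8% over all genes. Of 12 T and NK cell markers tested 1 was called, Cd8a, which was 4.47-fold lower (adjusted p = 0.0016), while Cd8b gave -0.91 (adjusted p = 0.0932) and Cd3g 0.55 (adjusted p = 0.149). Cd8a read 5.89, 5.62, 5.32 and 6.92 on the laser arrays and 8.44, 7.92, 7.67 and 8.35 on the bur arrays. Of 10 B cell markers tested 1 was called, the transcription factor Pax5, which was 1.66-fold lower (adjusted p = 0.0154).

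Glycolysis and hypoxia genes formed the list with the largest share of members called lower among those with over 10 members tested. Of 22 members, all tested, 15 were called lower and 0 higher, with a median difference of -1.12, and 12 to 16 were called lower when any 1 array was left out. List means ran from 9.29 to 9.67 log2 on the laser arrays, from 10.08 to 11.28 on the bur arrays and from 9.18 to 9.94 on the control arrays, so laser and control arrays overlapped and bur arrays lay above both. Pfkfb3, which makes the allosteric activator of phosphofructokinase, read 9.86, 9.99, 9.50 and 10.17 on the laser arrays and 12.59, 12.06, 11.09 and 12.33 on the bur arrays. It was lower by both probes, at -2.14 and -1.18 (4.41-fold by the brighter, adjusted p = 0.000348). Control bone was at 10.68, above the laser mean.

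Eno1, the glycolytic enolase, read 11.94, 12.01, 12.08 and 12.44 on the laser arrays and 13.64, 13.42, 12.96 and 13.28 on the bur arrays, a 2.31-fold lower reading (adjusted p = 0.000393), with 3 probes from -1.24 to -0.45. Pgam1, phosphoglycerate mutase, read 11.31, 11.34, 11.30 and 11.59 against 13.38, 12.86, 12.41 and 12.71, which is 2.74-fold lower (adjusted p = 0.000409). Pfkl, the liver form of phosphofructokinase, was 2.18-fold lower (adjusted p = 0.000997). In each of these genes the laser values were close together and the bur values stood above them.

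Probes of several enzymes read the difference alike. Hk2, the hexokinase that starts glycolysis, gave -1.12 and -1.44 by its 2 probes, and Pdk1, a kinase that holds pyruvate back from mitochondria, gave from -1.40 to -0.80 by 4 probes. Outside the list, Gapdh, the glycolytic dehydrogenase often used as a loading reference, was lower by all 8 of its kept probes, from -1.76 to -1.12. Its brightest probe read 13.13, 13.01, 13.11 and 13.23 on the laser arrays and 14.79, 14.73, 14.34 and 14.64 on the bur arrays (adjusted p = 4.23e-05). Pkm, the muscle pyruvate kinase, was lower by all 4 probes, from -1.56 to -0.85. Gapdh, Pkm, Hk2 and Pdk1 were named after their values were seen, and Gapdh has near-identical pseudogene copies that its probes may also bind. The letters ACGTG, the core of the hypoxia response element, occurred on either strand in 5 of the 14 promoter windows of list members called lower, against 21.1% of the windows of genes tested. The C/EBP form was found in 8 of these 14, the NF-kappaB form in 2 and the AP-1 form in 1.

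**Figure D3:**
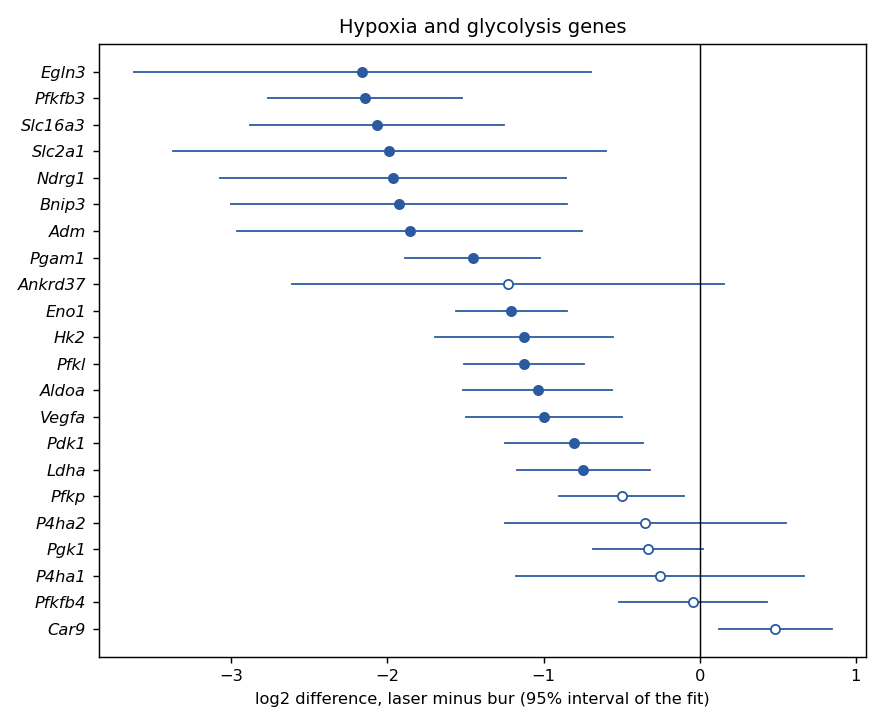
Log2 differences (laser minus bur, horizontal axis) of the 22 hypoxia and glycolysis genes with the 95% interval of the fit. Filled points passed an adjusted p under 0.05, and all 15 of these lie to the left of 0.

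Early response and stress genes were lower in part, where 14.2% of all genes were called lower and 11.6% higher. Of 17 immediate early genes tested, 6 were called lower and 0 higher (median -0.79). Fos, an AP-1 subunit, read 4.72, 4.96, 4.26 and 4.87 on the laser arrays and 6.76, 6.43, 5.63 and 7.0 on the bur arrays (3.37-fold lower, adjusted p = 0.00351). Fosl1 was 3.22-fold and Junb 3.2-fold lower, each by 1 probe, and Jun was lower by both probes, at -1.03 and -0.69. Of 11 NRF2 and metallothionein genes tested, 3 were called lower (27.3%), Hmox1 and Srxn1 among them. Hmox1, the heme-degrading oxygenase, read 11.23, 11.02, 10.31 and 11.66 on the laser arrays and 14.17, 12.89, 12.54 and 13.56 on the bur arrays (4.71-fold lower, adjusted p = 0.00174), with the control mean of 11.09 at the laser level.

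Of 17 interferon-stimulated genes tested, 8 were called lower and 0 higher (median -0.82), but 4 to 10 were called when any 1 array was left out, with 4 without laser 2, laser 3, laser 4 or bur 2 and 5 without bur 1. Irf7, an inducer of type I interferon, was 2.98-fold lower (adjusted p = 0.012). Of 16 endoplasmic reticulum and amino acid stress genes, Atf3 (4.53-fold) and Ddit3 were called lower and Chac1 higher, the last not without laser 1, bur 2 or bur 4. The share called was 18.8%, below the 25.8% over all genes. Of 16 heat shock genes tested 1 was called, Bag3, a co-chaperone, at 1.82-fold lower (adjusted p = 0.00183), and the list's median was -0.06. That share of 6.25% is below the 25.8% over all genes. With averaged probes, 75th percentile scaling or the authors' deposited values, 2 heat shock genes were called higher and 1 lower. Of 22 oxidative phosphorylation genes, 1 was called higher and 1, Sdhc, lower, with a median of -0.05. The share called was 9.09%, also below that over all genes, and Sdhc was not called without laser 2 or 3 or bur 3 or 4.

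Of 16 osteoblast regulators and matrix genes tested, 2 were called higher and 0 lower, with a median of 0.44. The share called higher is near the 11.6% over all genes. Dlx3, a homeobox factor of osteoblast differentiation, read 12.70, 12.02, 12.71 and 12.19 on the laser arrays and 9.69, 9.80, 9.91 and 9.91 on the bur arrays (5.95-fold higher, adjusted p = 1.05e-05). Col1a2, a chain of type I collagen, read 15.86, 15.72, 16 and 15.68 against 13.75, 14.08, 13.97 and 13.92 (3.7-fold higher, adjusted p = 0.000239). Each was read by 1 probe, and bur and control bone differed by -0.32 and -0.07. Col1a1, the partner chain, had 2 probes, of which the brighter gave 0.51 (adjusted p = 0.0729) and the dimmer 1.58. Alpl, the alkaline phosphatase of mineralising cells, did not pass (0.83, adjusted p = 0.0597).

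Of 10 osteocyte genes tested 1 was called, Cd44, a hyaluronan receptor that leukocytes also carry, at 2.97-fold lower (adjusted p = 0.000143), and its 3 probes ran from -1.57 to -0.48. Pdpn, podoplanin, gave -1.74 by its brighter probe (adjusted p = 0.079) and -2.01 by the other. Sost, the gene of the Wnt antagonist sclerostin that the series' title names, read 5.23, 5.76, 5.37 and 4.27 on the laser arrays and 4.90, 5.44, 6.69 and 6.12 on the bur arrays. The groups overlapped, the difference of -0.63 ± 0.48 did not pass, and its 95% interval runs from a 0.311-fold to a 1.34-fold level. Of 9 Wnt antagonists tested 1 was called, Apcdd1, which was higher by both probes, at 0.81 and 1.70 (adjusted p = 0.0064 for the brighter). Of 7 Wnt feedback targets tested, 0 were called by limma at the adjusted threshold. The shares called were 10% for osteocyte genes and 11.1% for Wnt antagonists, against 25.8% over all genes. For the Wnt antagonists the share called higher is near the 11.6% over all genes.

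Of 14 osteoclast and RANKL system genes tested, 2 were called higher and 3 lower, together 35.7% against 25.8% over all genes. Ctsk, the collagen-cleaving cathepsin K, read 14.11, 13.85, 14.68 and 14.29 on the laser arrays and 13.01, 12.65, 13.31 and 12.91 on the bur arrays (2.39-fold higher, adjusted p = 0.000796), and Car2, carbonic anhydrase 2, was 0.70 higher (not called without laser 1, 3 or 4 or bur 3 or 4). Tcirg1, a subunit of the proton pump, was 2.26-fold lower by its brighter probe (-0.34 by the other), and Oscar, a co-stimulatory receptor, fell by 1.20 on the log2 scale and Tnfrsf11a, the receptor RANK, by 1.14. Oscar was not called without laser 3, and Tnfrsf11a in 6 of the 8 fits that left out a laser or bur array. Between 1 and 2 were called higher and between 1 and 4 lower when any 1 array was left out.

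In the BMP and TGF-beta list, 3 of 21 were called higher (Id3, Bmp5 and Ltbp2) and 3 lower (Id2, Tgfbi and Skil). The share called, 28.6%, is near the 25.8% over all genes, and the list's median was -0.03. Bmp5, a bone morphogenetic protein, read 9.18, 8.69, 8.48 and 9.29 on the laser arrays and 7.04, 7.10, 6.30 and 6.86 on the bur arrays, while control bone averaged 8.77, so bur-drilled bone was the group that stood apart. Id2, an inhibitor of helix-loop-helix factors, was 1.93-fold lower (adjusted p = 0.00102). Ltbp2 and Tgfbi lost their calls in most fits that left out a laser or bur array. Of 18 YAP and TAZ targets and Hippo parts, Yap1 was called higher and Nt5e lower, a share of 11.1% against 25.8% over all genes. The second probe of Yap1 gave -0.28 against 2.06 for the first, while Nt5e was not called without laser 1, 3 or 4 or bur 1, 2 or 4. Of 20 matrix remodelling genes tested, Fn1, Timp2, Mmp14 and Thbs1 were called lower and 0 higher, which is 20% lower against 14.2% over all genes. Fn1, fibronectin, read 11.90, 12.67, 11.64 and 12.39 against 14.38, 14.74, 13.43 and 14.15 (4.06-fold lower, adjusted p = 0.000696). Without laser 1, laser 3 or bur 1 this list kept 2 calls.

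Of 20 mitosis genes tested, 6 were called higher and 0 lower, against 11.6% of all genes called higher, with a median of 0.41, and 2 to 7 were called when any 1 array was left out, with 2 without laser 1, laser 4, bur 2 or bur 3 and 3 without laser 2 or bur 4. Bub1, a checkpoint kinase, read 9.52, 9.32, 9.08 and 9.46 on the laser arrays and 8.85, 8.79, 8.85 and 8.50 on the bur arrays (1.52-fold higher, adjusted p = 0.00597). Control bone was higher than both, at 9.81. Top2a, topoisomerase II alpha, was 1.56-fold higher (adjusted p = 0.0114). Of 16 DNA replication genes tested 1 was called, Tyms, which was higher except without laser 1, a share below that over all genes. Of 13 erythroid markers tested, 0 were called by limma at the adjusted threshold, with a median of 0.23. Klf1, Slc4a1, Ahsp and Epb42 gave 0.31, 0.66, -0.43 and 0.73, and the bur-control difference was negative and called in each.

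Markers of other cell types in the defect gave mixed readings. Over all genes, 11.6% were called higher and 14.2% lower, together 25.8%, against 30.8% of the endothelial markers. Of 13 endothelial markers tested, Esam, Flt4 and Emcn were called higher and Eng lower, but only 1 stayed higher without laser 1, 2 or 3 or bur 2 or 3. Of 16 periosteal and fibroblast markers, Mkx and Prrx1 were called higher, Prrx1 at 1.82-fold (adjusted p = 0.037, not without laser 1, 2 or 3 or bur 1, 2 or 3). Of 12 skeletal muscle markers 9 were tested, of which Acta1 and Ckm were called higher and Tnnt3 and Tnni2 lower, so the list gave no single direction. Ckm, muscle creatine kinase, read 7.54, 7.37, 7.10 and 7.34 on the laser arrays and 1.31, 3.86, 5.51 and 5.04 on the bur arrays, of which 2 were well above background, and its call was lost without any laser array, bur 1 or bur 2. Tnni2 was not called without laser 1 or 3 or bur 3 or 4. Muscle list means were 4.23 to 5.22 log2 on the laser arrays and 3.71 to 5.81 on the bur arrays. Of 10 chondrocyte markers 3 were tested, and Sox9 and Col2a1 were called higher, Col2a1 with 0 bur arrays above background (at least 2.2-fold, not called without laser 1 or 2 or bur 2 or 3). Of 5 epidermal markers tested Krt5 and Krt14, and of 10 neural markers Gfap, were called higher, all at dim signals with 0 bur arrays above background, and the sign of Krt5 and Gfap turned when dim values were raised to the background limit. Of 5 adipocyte markers tested, 0 were called by limma at the adjusted threshold.

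**Figure D4:**
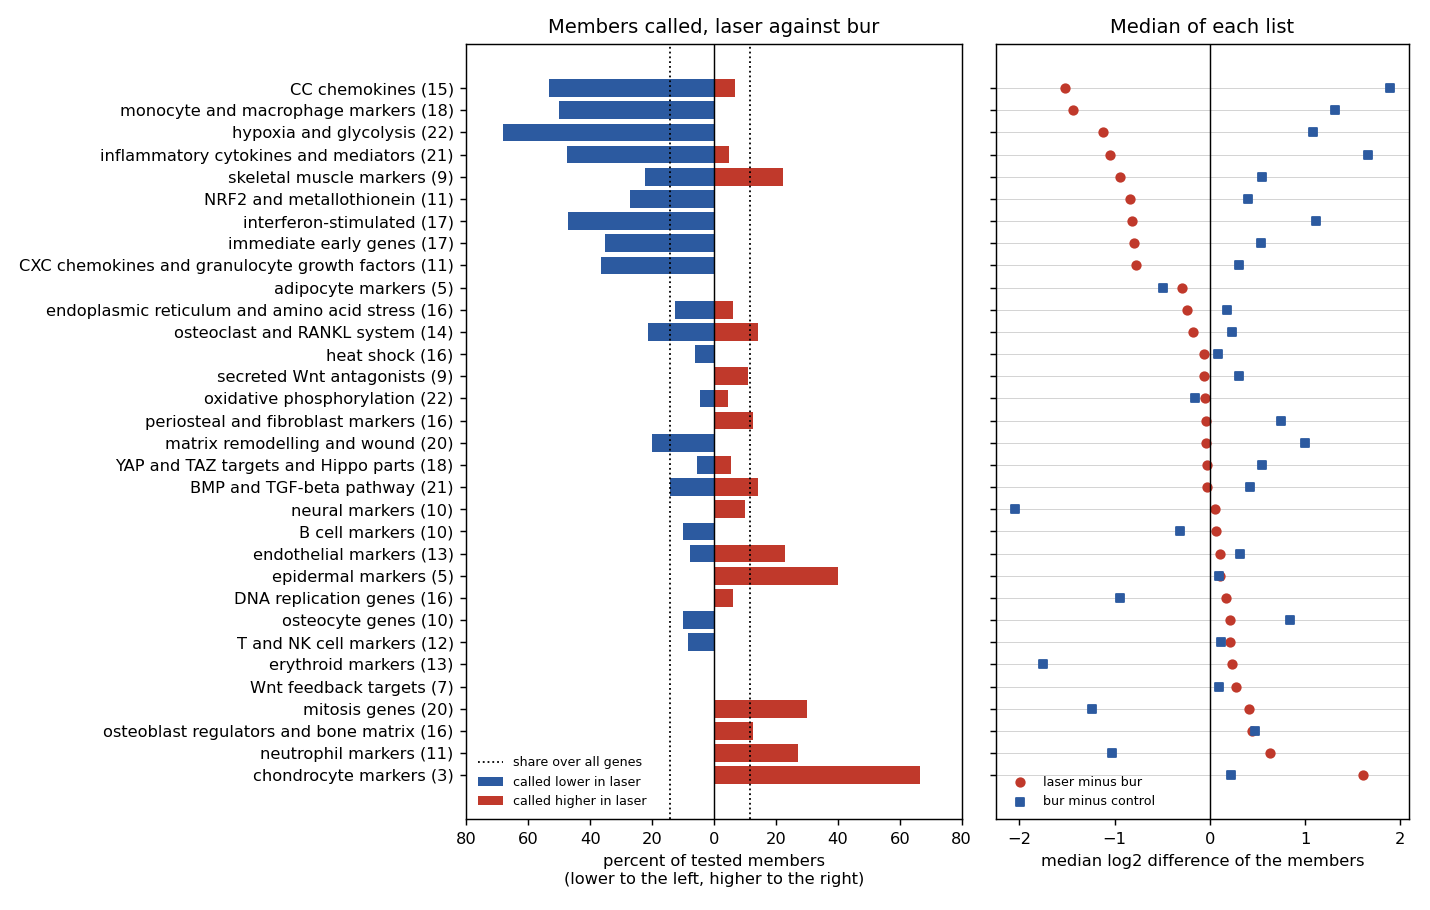
Left, percent of the tested members of each of 32 gene lists called lower (blue, to the left) or higher (red, to the right) in laser-ablated bone, with the share over all genes as dotted lines (14.2% lower, 11.6% higher) and the number tested in brackets. Right, the median log2 difference of each list for laser minus bur (red circles) and bur minus control (blue squares), which share the bur arrays. The longest blue bar is that of hypoxia and glycolysis.

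Genes read higher in laser-ablated bone by all of their probes were fewer than those read lower. Over the 65 such genes the median difference was 0.92, the median bur-control difference -0.06, and 7 were not well above background on any bur array. Their median level was 7.31 log2 on the bur arrays and 8.07 on the laser arrays. Cacna1i, a T-type calcium channel, read 7.21, 6.90, 7.18 and 6.88 on the laser arrays and 4.25, 4.75, 4.61 and 3.91 on the bur arrays, with probes at 2.66 and 2.74 that start at the same transcript base (adjusted p = 2.69e-05). Ankrd33, an ankyrin repeat protein, read 11.68, 11.46, 12.19 and 12.32 against 8.77, 9.37, 9.21 and 8.09, with 3 probes from 2.39 to 4.56. In both genes the groups were far apart. Among the named genes of this kind, the probes of Cacna1i, Emx1, Krtap27-1, Lif, Majin, Mutyh and Srd5a2 share a run of 30 bases or more and do not count as separate readings.

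Majin, a meiotic telomere protein, and Vom1r54, a vomeronasal receptor, were read above background on 0 bur arrays and were at least 2.05-fold and 3.4-fold higher. Evc2, a regulator of hedgehog signalling at the cilium, was 2.53-fold higher by its brighter probe, and its probes ran from 1.34 to 5.12. Mutyh, a DNA repair glycosylase, was 2.61-fold higher with probes at 1.38 and 1.85. Srd5a2, a steroid reductase, was 3.22-fold and Ccno, a cyclin of multiciliated cells, 3.14-fold higher. Rps24, a ribosomal protein with near-identical copies in the genome, read 15.18, 15.25, 15.34 and 15.26 against 13.90, 14.33, 14.03 and 14.23, with probes at 1.13 and 1.45 (adjusted p = 0.000722). The rule also took Lce1f, Krtap27-1, Emx1 and Ubap1l, at 1.97, 1.20, 1.34 and 1.16 by the brighter probe, of which Ubap1l lost its call in most fits that left out 1 array and Krtap27-1 without laser 2 or bur 2.

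Genes read by 1 probe gave wide differences in the higher direction. Of 1490 genes with 1 kept probe called higher, 41 exceeded 4 log2 units, and of 1498 called lower, 0 did. More spots were well above background on the laser arrays, which alone can carry a probe through the filter. The part of this in both counts was not tested. Mcc, a tumour suppressor of the Wnt pathway, read 10.81, 10.65, 10.78 and 10.92 on the laser arrays and was not well above background on any bur array, which makes it at least 199-fold higher. Ovch2, a serine protease, was at least 66.7-fold higher on the same terms. Id3, an inhibitor of helix-loop-helix factors, read 7.12, 6.86, 6.42 and 6.67 and was at least 19.3-fold higher. Krt80, a keratin, read 10.74, 10.63, 10.79 and 10.88 against 4.37, 3.82, 3.87 and 3.93, where 1 bur array was above background. In all of them the laser values were close together and control bone on slide 1 read as dim as bur-drilled bone, with bur-control differences from -0.33 to 0.26.

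The lowest genes read by 1 probe were smaller in size. Car4, a membrane carbonic anhydrase, read 7.0, 5.76, 5.91 and 6.48 on the laser arrays and 10.59, 9.08, 8.57 and 9.55 on the bur arrays (8.94-fold lower, adjusted p = 0.00535). Saal1, a gene named for its likeness to serum amyloid A, read 10.89, 9.13, 8.24 and 9.58 against 13.62, 12.78, 11.62 and 11.84 (8.03-fold lower, adjusted p = 0.00618). Cxcl2, given above, was another. Prh1, a salivary proline-rich protein, was well above background on 1 laser and 3 bur arrays, and its call (adjusted p = 0.0493) was lost in most fits that left out 1 array.

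Some wide differences could be read against a further probe of the same gene that gave another size or direction. Zdhhc18, a palmitoyltransferase, lies on chromosome 5 in rn4, with probes at 151465495-151465554 and 151473963-151474022. Mkx, a homeobox factor of tendon, lies on chromosome 17, with probes at 63629252-63629311, 63696619-63696678 and 63700442-63700501. The first 30 of 60 bases of each probe are printed to show that the discordant readings belong to distinct sequences, whose longest shared run was 6 bases in Zdhhc18 and 7 in Mkx.
Zdhhc18 probe read higher in laser: cgccccctcggactcgggaggtgatgatca
Zdhhc18 probe read lower in laser: tttatttgagccagtattccttgctcctgc
Mkx probe at 63629252: gcttggctgacatgtaatttatatgaaaga
Mkx probe at 63696619: ttaactccattttaaaagaccacttgtcca
Mkx probe at 63700442: gaagaagaactggtgtctccatcatcatca
The first Zdhhc18 probe, at transcript base 548, read 14.68, 14.79, 14.86 and 14.38 on the laser arrays and 10.24, 11.58, 10.80 and 10.74 on the bur arrays, a difference of 3.84, whereas the probe at base 2855 gave -0.87. Both were called. The Mkx probe at 63700442 read 9.75, 9.54, 9.79 and 9.84 against 3.30, 2.73, 2.99 and 2.02, with 0 bur arrays above background (at least 117-fold higher). The other Mkx probes gave 1.59 and -0.11.

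Elmo1, an adaptor of engulfment and migration, was -0.66 by its brighter probe and 5.0 by the other. Rpl27a, a ribosomal protein with near-identical copies, had 3 probes from -0.77 to 4.32, and Ergic2, a protein of the early secretory pathway, gave -0.62 and 4.27. Elmo1 was not called by its brighter probe without laser 1, laser 4 or bur 1, nor Ergic2 without laser 3. For such genes the direction depends on which probe stands for the gene. Averaging the probes turned Elmo1 to 2.17, Rpl27a to 1.27, Ergic2 to 1.82 and Lyz2 to 0.12. Cebpb, Msr1, Socs3, Hk2, Pfkfb3 and Gapdh were each called lower by every kept probe. Cebpb and Msr1 were named by a rule that asks for this, and Hk2 and Gapdh after their values were seen. The lack of opposition in these genes is therefore no test.

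**Figure D5:**
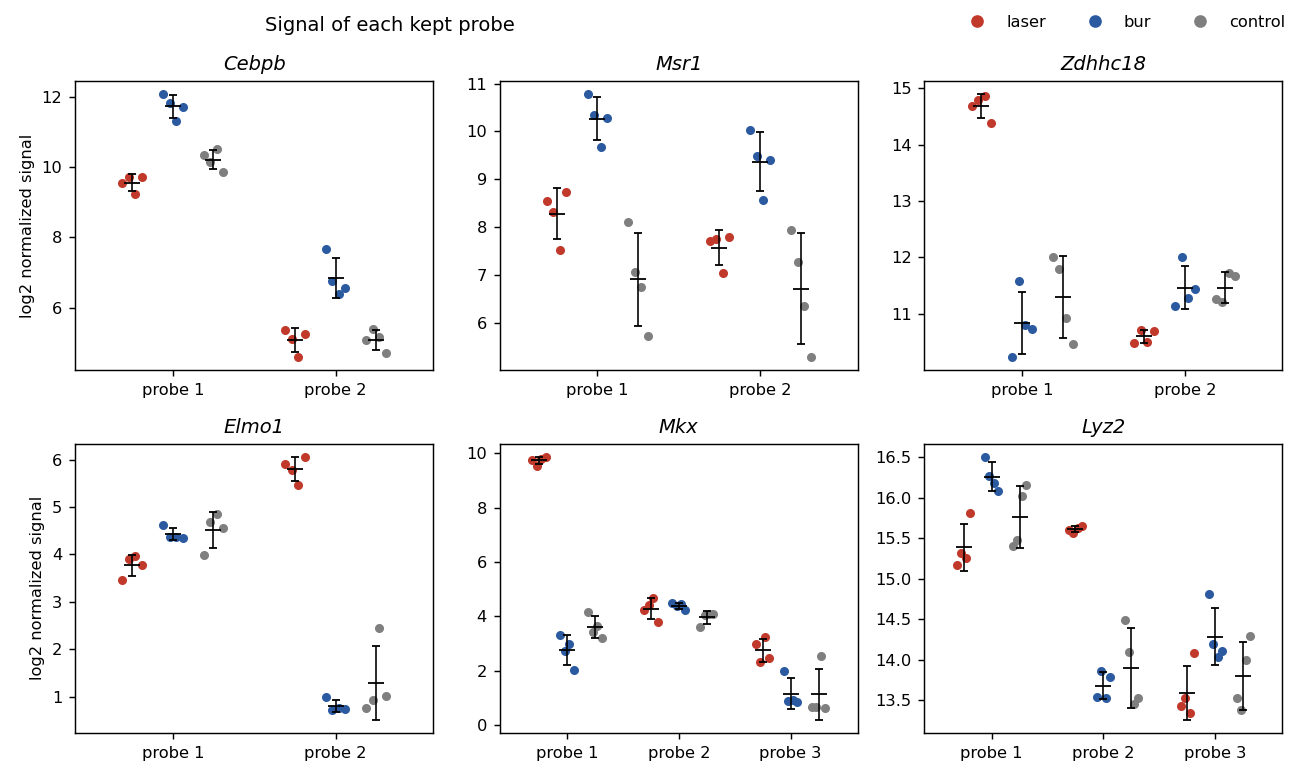
Log2 normalized signal of each kept probe of 6 genes on each array, brightest probe first, with group means and SD (n = 4). The probes of Cebpb and Msr1 all read laser (red) below bur (blue), whereas in Zdhhc18, Elmo1, Mkx and Lyz2 at least 1 probe reads laser far above bur and another does not.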

How the data were processed

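RNA of 12 calvarial samples was hybridised to single-colour Agilent arrays. The authors deposited scanner files whose processed signal is a background-corrected intensity, for which the submitters' processing notes name version 11.0.1.1 of Agilent Feature Extraction. They also deposited a table of normalized log2 values and a table of comparisons with adjusted p-values. In the authors' deposited table of laser against bur, 6687 of 21080 entries had an adjusted p under 0.05, of which 3030 read higher and 3657 lower.

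Control spots were left out, log2 of the processed signal was quantile normalized over the 12 arrays, and spots of a probe were averaged. A probe was kept when well above background on at least 4 arrays, which left 27196 of 45598 probes. A gene was represented by its brightest kept probe. One limma fit (version 3.58.1, R 4.3.3) held all 3 groups, with empirical Bayes moderation and Benjamini-Hochberg adjustment over 16382 genes at a threshold of 0.05, a design of groups alone and no block. In simulated data with 200 changed genes of 16375, the fit recovered 49% of changes of 1 log2 unit and 88% of those of 2. Of its 146 calls, 9 were false. The simulation drew independent normal values and held no slide difference, and the data gave 4224 calls. Its shares therefore do not carry over to the calls made here and say nothing of the slide. With 4 arrays a group, the number of arrays limits the precision.

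The comparison, its gene lists and the rules for names were chosen with earlier results of these data known. Named genes were the 14 highest and 14 lowest of those with all probes called in the same direction and no overlap between the groups, ranked by their weakest probe, with up to 4 members of each list by smallest p, Sost, the 4 genes with the widest gap between opposed probes, and the 4 highest and 4 lowest genes read by 1 probe. Genes outside this rule were chosen after their values were seen: Ccl22, Il1b, C3ar1, Tlr6, Lyz2, Hk2, Pdk1, Gapdh, Pkm, Tnfrsf11a, Ltbp2 and Tgfbi. An "at least" fold sets the mean of the bright group against the mean of the dim group's values. Each dim value was first raised to its array's background limit where it lay below it. That limit is the lowest signal of any probe well above background on the array. Some probes not well above background read above it, so an "at least" fold is an estimate and no strict lower bound. Alternatives were other scalings, background correction, filters, probe summaries, array weights, a replicate block, 8 arrays in the fit and each array left out in turn. Replicate numbers were checked for pairing by correlating same-numbered laser and bur arrays, which gave no steady match. Whether the numbers pair the samples was not settled, and the fit took no account of it. Coordinates of probes are those in the files, build rn4, and promoters are from RefSeq, build GRCr8. Results of some genes are not reported here.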

Additional observations from a re-analysis of the deposited data

Results flagged for a closer look

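Among 274 sets of 4 arrays checked, 11 held 1 array that stood apart from the other 3, where chance gives about 1 in 20 sets. Laser 3 read lower than the other laser arrays for Havcr2 (4.299), Tlr6 (8.288) and Hk2 (6.994), and laser 2 read lower for Klf1 (7.837). Laser 4 read higher for Vom1r54 (5.611) and Pgam1 (11.59). Bur 1 read higher than the other bur arrays for Majin (2.292) and Elmo1 (4.615), and bur 4 for Bag3 (9.521), Gfap (0.714) and Ovch2 (2.266). The Majin, Gfap and Ovch2 values lay below background on all bur arrays.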

How the results depend on the processing

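Scaling on the spike-in probes shifted the median of all genes from -0.06 to -0.20 and left 112 genes called, 98 higher and 14 lower, all 112 at least 2-fold. It left 9 list members called, and 3 genes with all probes in the same direction, 0 higher and 3 lower; the cause was not tested. List medians did not shrink with it: -1.74 for CC chemokines, -1.59 for macrophage markers, -1.22 for inflammatory genes and -1.35 for hypoxia and glycolysis, of which 1, 1, 1 and 0 members were called lower. Requiring signal above background on all 12 arrays left 1171 genes higher and 989 of at least 2-fold, with 12147 genes tested. Genes of at least 2-fold were 595 with normexp correction and 881 in the authors' deposited values. Genes with all probes in the same direction were 510 with array weights (115 higher, 395 lower) and 186 in the authors' values (24 higher), and 100 were all higher with 75th percentile scaling. Counting only genes with probes on separate bases, an alternative chosen after seeing the data, gave 264.

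Leaving out each array in turn gave 3005 to 4574 genes called, 1387 to 1990 higher, 1562 to 2584 lower and 1595 to 1905 of at least 2-fold. It gave 178 to 353 genes with all probes in the same direction, 39 to 71 higher and 132 to 282 lower, and 91 to 126 list members called. The Sost difference ran from -0.926 to -0.332.

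With the replicate block, 4406 genes were called, with 136 list members against 119 and 11 interferon-stimulated genes lower against 8. Same-numbered laser and bur arrays deviated together at r = 0.35, 0.0176, 0.148 and -0.0665. Laser 3 and bur 3 were each the lowest of their group for Il1b, Il1rn, Clec4d and Havcr2. The same held for many other named genes, among them Cebpb, Msr1, Nos2, Tnf, Ccl3, Cxcl1, Cxcl2, Hmox1, Fos, Fn1 and Pfkfb3. It did not hold for Ccl2, Ccl7, Ccl6, Socs3, C3ar1, Eno1 or Sost. Whether the numbers pair the samples was thus not settled. Raising dim values to the background limit turned Krt5 to -0.19 and Gfap to -0.31. Averaging probes turned Elmo1 to 2.17, Rpl27a to 1.27, Ergic2 to 1.82 and Lyz2 to 0.12, and the authors' values gave 0.64, 3.38, 0.33 and 0.45. Of 129 named genes called, 83 kept their call under each of the 22 planned settings other than spike-in scaling in which they were tested. A gene not tested in a setting was not counted against it. Of 137 named genes, 112 were tested with signal above background on all 12 arrays and 132 in the authors' values. Under spike-in scaling, 16 of the 129 kept their call.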
